A study of Mus musculus with 18 samples.

Results

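The mitosis and kinetochore genes are 44 genes, chosen by name for what their proteins do in cell division and found as 44 of the 16545 genes in an expression table of splenic B cells. They were followed by RNA-seq in 18 libraries made from splenic B cells of C57BL/6 mice, 3 libraries for each of 2 genotypes at each of 3 times. Control mice (labelled CON) carried a Cre allele active in B cells with unmodified Zbtb24, and Zbtb24 B-CKO mice (B-CKO) carried the same Cre allele with Zbtb24 loxp/loxp, in which Cre removes exon 2 of Zbtb24, so that both genotypes carry Cre and the gene is lost in the B lineage. Cells were taken on day 0 (D0) and on day 1 (D1) and day 2 (D2) of culture with LPS, a bacterial lipopolysaccharide that activates B cells. Each replicate came from 1 mouse, while the ages of the mice, and whether a mouse gave cells for more than 1 time, are not given in the sources used here. The comparisons ask when the mitotic program appears in the culture and whether it differs without ZBTB24, a zinc finger protein mutated in an inherited syndrome with immunodeficiency and unstable centromeres.

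Resting B cells sit outside the cell cycle and divide after LPS. A cell that prepares for mitosis builds up cyclins, which switch on the kinase CDK1, and then condenses its chromosomes, assembles a kinetochore on each centromere, attaches it to the spindle, waits for the spindle checkpoint and separates its chromatids through the anaphase-promoting complex. Most genes of this program are transcribed late in the cycle, and their promoters commonly hold CCAAT boxes, the letters read by the factor NF-Y, and the cell cycle genes homology region, whose core letters TTTGAA are read by the DREAM and MuvB complexes.

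The promoters are shown because most members moved together over time. In RefSeq on GRCm38.p6, 36 of the 44 members had a window from 250 bases before to 50 bases after a transcription start, in 38 windows of 300 bases. Among members with a single window, the one with the highest mean level in each of 6 of the 8 functional groups is printed 5′ to 3′ on the strand of the gene, with TTTGAA and CCAAT on either strand in capitals (TTCAAA and ATTGG are the reverse complements, and neighbouring matches can share letters). The 6 windows below are those of a topoisomerase that untangles DNA (Top2a), a ubiquitin-conjugating enzyme of the anaphase-promoting complex (Ube2c), survivin (Birc5), the centromeric histone (Cenpa), a mitotic kinase (Plk1) and a checkpoint protein (Mad2l1).
Top2a (chr11:99024140-99024439, minus strand): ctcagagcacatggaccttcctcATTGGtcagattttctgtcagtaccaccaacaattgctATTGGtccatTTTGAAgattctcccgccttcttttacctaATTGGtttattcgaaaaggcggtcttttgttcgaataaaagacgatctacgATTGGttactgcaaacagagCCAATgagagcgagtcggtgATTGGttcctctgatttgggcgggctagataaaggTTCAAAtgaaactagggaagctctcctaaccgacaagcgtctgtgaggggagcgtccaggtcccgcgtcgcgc
Ube2c (chr2:164769679-164769978, plus strand): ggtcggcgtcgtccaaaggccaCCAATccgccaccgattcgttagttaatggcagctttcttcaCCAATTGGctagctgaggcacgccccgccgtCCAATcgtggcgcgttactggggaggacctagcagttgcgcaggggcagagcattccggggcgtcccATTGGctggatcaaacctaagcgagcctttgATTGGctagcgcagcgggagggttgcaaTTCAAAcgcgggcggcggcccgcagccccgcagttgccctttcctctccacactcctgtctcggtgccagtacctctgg
Birc5 (chr11:117848987-117849286, plus strand): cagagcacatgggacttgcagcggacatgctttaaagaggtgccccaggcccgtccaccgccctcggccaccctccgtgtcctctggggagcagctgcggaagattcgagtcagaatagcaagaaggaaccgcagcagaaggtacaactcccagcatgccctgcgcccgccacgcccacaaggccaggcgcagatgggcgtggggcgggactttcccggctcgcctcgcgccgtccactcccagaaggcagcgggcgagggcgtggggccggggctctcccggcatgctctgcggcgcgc
Cenpa (chr5:30666636-30666935, plus strand): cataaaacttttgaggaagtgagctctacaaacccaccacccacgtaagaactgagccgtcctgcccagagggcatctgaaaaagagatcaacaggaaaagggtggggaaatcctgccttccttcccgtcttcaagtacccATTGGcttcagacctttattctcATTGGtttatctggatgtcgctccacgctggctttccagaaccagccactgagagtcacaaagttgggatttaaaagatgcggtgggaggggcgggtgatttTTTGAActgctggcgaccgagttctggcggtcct
Plk1 (chr7:122159185-122159484, plus strand): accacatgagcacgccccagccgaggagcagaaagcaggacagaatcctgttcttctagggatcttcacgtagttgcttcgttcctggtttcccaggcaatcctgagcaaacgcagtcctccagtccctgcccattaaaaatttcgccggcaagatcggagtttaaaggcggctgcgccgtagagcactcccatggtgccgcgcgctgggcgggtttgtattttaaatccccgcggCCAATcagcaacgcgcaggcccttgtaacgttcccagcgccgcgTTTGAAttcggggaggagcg
Mad2l1 (chr6:66534971-66535270, plus strand): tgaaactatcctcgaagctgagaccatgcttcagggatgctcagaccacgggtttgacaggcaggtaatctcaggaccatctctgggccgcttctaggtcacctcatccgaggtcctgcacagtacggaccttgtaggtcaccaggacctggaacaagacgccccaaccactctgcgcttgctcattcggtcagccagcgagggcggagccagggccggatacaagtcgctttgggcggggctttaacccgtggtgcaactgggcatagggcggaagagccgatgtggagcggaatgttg

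TTTGAA, searched on both strands, was found in 29 of the 38 member windows (76.3%) and in 5878 of 32851 windows of all genes (17.9%). CCAAT, also on both strands, was found in 29 of the 38 (76.3%) and in 37.4% of all windows. Both sets of letters were in 26 of the 38 member windows (68.4%), against 6.95% of all windows. G and C made up 59.2% of the member windows and 53.8% of all windows. In 26 of the 29 windows with TTTGAA, the match nearest to the start began within 50 bases of it, as at 29 bases before it in Ube2c and 16 bases after it in Cenpa. The windows of Birc5, Mad2l1, Nuf2, Nusap1, Ncaph and Pttg1 held neither set of letters. In 3 of the 38 windows the start lay over 500 bases from the annotated 5′ end of the gene, those of Kif2c (3852 bases), Pttg1 (1482) and Ncapd2 (514), of which Kif2c and Ncapd2 held TTTGAA. These matches describe letters in a fixed window and no binding was measured.

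The libraries were first checked against their labels. Zbtb24 read 37.1 to 49.6 FPKM (fragments scaled to transcript length and to the mapped reads of the library) in the control and 10.5 to 14.3 in the B-CKO libraries at D0. It read 15.7 to 18.8 against 10.4 to 11.7 at D1 and 13.4 to 17.1 against 9.23 to 11.3 at D2, so the groups did not overlap at any time. FPKM per gene include transcript outside the deleted exon, so the level that remained does not measure how complete the deletion was. B cell markers were abundant in every library, with a summed level of 2076 to 5301 FPKM over 7 genes, while 8 T cell markers summed to 9.04 to 31.9 FPKM, of which Lck, a kinase also expressed in B cells, made up most. Myeloid markers summed to 6.55 to 14.97 FPKM, NK cell markers to 0.50 to 17.8 and plasma cell markers to 134.6 to 420.1. Cd3e was at most 1.15 FPKM in any library.

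The 44 members had a low summed level at D0 and climbed at each later time, although Cenpa, Smc4 and Pttg1 were each above 20 FPKM in every D0 library. Their FPKM summed to 207.0 to 269.5 in the 6 libraries at D0, to 1085 to 1324 at D1 and to 2667 to 2879 at D2. In controls, 42 of the 44 were higher at D1 than at D0, with a median difference of 2.63 on a log2(FPKM + 1) scale, where a value of 1 is a doubling for a well expressed gene (limma moderated test with Benjamini-Hochberg adjustment over all genes). The same test called 26.8% of all 16182 genes higher and 31.2% lower. No member was called lower, and the 2 that were not called higher were Cenpa and Pttg1. From D1 to D2, 43 of 44 were higher in controls, with a median of 1.22 and a background of 20.0% of genes higher, and from D0 to D2 it was 43 of 44 with a median of 3.85 and a background of 26.5%. Over all genes tested the median of each of these differences lay within 0.02 of 0. In B-CKO libraries the same counts were found, 42, 43 and 43 of 44, with medians of 2.53, 1.08 and 3.69 and backgrounds of 26.9%, 21.8% and 26.6% of genes higher. In B-CKO from D0 to D1, 31.5% of all genes and no member were called lower. In either genotype, the 3 libraries of D2 lay above the 3 of D0 for 43 of the 44 members, beside 27.9% of all genes in controls and 28.1% in B-CKO. Because these are bulk libraries, more cells in mitosis and more RNA in each such cell cannot be told apart.

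**Figure D1:**
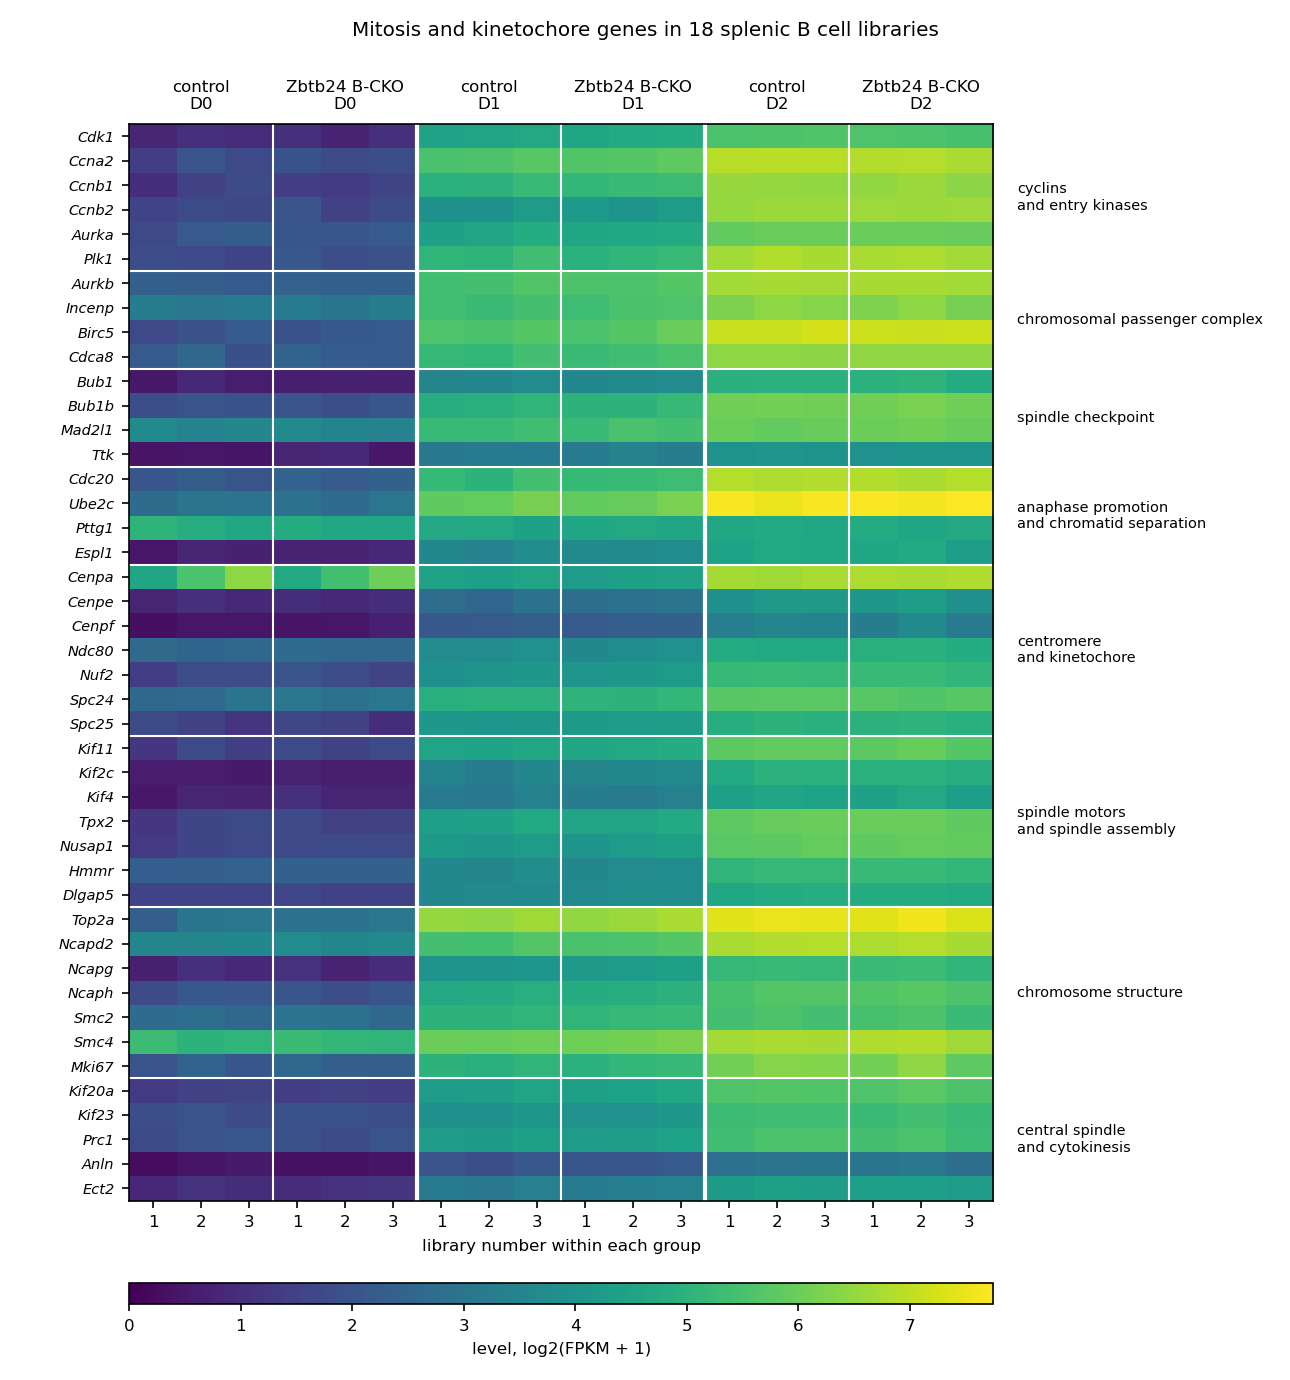
Level of each of the 44 members (rows, grouped by role) in each of the 18 libraries (columns, 3 per genotype and time) as log2(FPKM + 1) in colour. Nearly all rows brighten from D0 to D1 and again to D2 alike in both genotypes, while Pttg1 keeps its level and Cenpa is already bright in several D0 libraries.

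Cyclins and entry kinases had the largest median rise of the 8 functional groups from D0 to D1, 3.52 on the log2 scale in controls and 3.44 in B-CKO. All 6 rose at D1 and again at D2 in both genotypes, and in controls their FPKM means multiplied by 7.05 to 23.9 (median 16.8) from D0 to D1. Cyclin A2 (Ccna2), which works with CDK2 and then CDK1, read 1.68, 3.08 and 2.28 FPKM in the control libraries at D0, 44.6, 47.1 and 52.6 at D1 and 119.3, 121.2 and 119.1 at D2. In B-CKO it read 2.86, 2.44 and 2.66, then 48.8, 51.3 and 56.2, then 113.9, 117.9 and 107.4. The times never overlapped and the genotypes stayed close at each of them. Cyclin B1 (Ccnb1), the main partner of CDK1 in mitosis, read 1.03 to 2.38 FPKM over the 6 libraries at D0, 29.8 to 38.7 at D1 and 83.9 to 94.0 at D2. Polo-like kinase 1 (Plk1) read 2.02 to 3.30, 29.8 to 40.0 and 101.0 to 114.2 FPKM. The kinase gene Cdk1 itself multiplied by 23.9 from D0 to D1 and by 2.08 from D1 to D2 in controls. Aurora A (Aurka), a kinase of the spindle poles, multiplied by 7.25 in the first day.

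Cyclin B2 (Ccnb2) behaved differently within this group. It read 1.97, 2.36 and 2.23 FPKM in controls at D0, 13.9, 13.8 and 18.5 at D1 and 90.6, 95.1 and 95.5 at D2. The rise in the second day was 2.54 ± 0.10 (SE) on the log2 scale, the largest of the 44 in controls, while that of the first day was 2.35 ± 0.15. The order of the 2 days depends on the pseudocount, since the FPKM means multiplied by 7.05 in the first day and by 6.08 in the second. The adjusted p in limma were 3.72e-08 and 2.99e-07. In B-CKO the rises were 2.47 ± 0.10 in the second day and 2.36 ± 0.15 in the first, and the means multiplied by 5.80 and 6.73.

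The 4 genes of the chromosomal passenger complex, which corrects faulty attachments at the centromere and later marks the cleavage plane, all rose at both steps. Survivin (Birc5) had the highest level of these, with 2.29 to 3.69 FPKM at D0, 44.7 to 62.6 at D1 and 134.9 to 149.6 at D2 over both genotypes. Aurora B (Aurkb), the kinase of the complex, read 3.59 to 4.36, 41.0 to 51.5 and 100.2 to 106.2 FPKM. Borealin (Cdca8) multiplied by 10.0 in controls from D0 to D1. The scaffold Incenp started from a higher level, 7.02 to 8.75 FPKM, and multiplied by 5.07 from D0 to D1 in controls, the least of these 4.

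The spindle checkpoint genes rose at both steps as well, from very different starting levels. Mad2l1, whose protein holds back CDC20 until attachment is complete, was already at 9.79 to 12.2 FPKM at D0 and reached 36.1 to 44.9 at D1 and 57.7 to 66.6 at D2. The kinase gene Ttk, which sets the checkpoint off, read only 0.32, 0.37 and 0.36 FPKM in controls at D0 and 7.69, 7.97 and 8.38 at D1. The checkpoint kinase Bub1 multiplied by 18.6 and its relative Bub1b by 10.4 from D0 to D1 in controls. Mad2l1 multiplied by 3.5 over the same step.

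Of the 4 genes for anaphase and chromatid separation, 3 rose at both steps and Pttg1 did not. Ube2c had the highest mean of all 44 members at D2, and read 5.51 to 7.18 FPKM at D0, 56.5 to 72.5 at D1 and 181.1 to 214.0 at D2. Cdc20, the activator of the anaphase-promoting complex, read 3.05 to 4.41, 31.4 to 42.3 and 108.0 to 116.9 FPKM. Separase (Espl1), the protease that cuts cohesin, read 0.37 to 0.85, 9.79 to 13 and 19.3 to 25.7 FPKM. Tnnc2 overlaps Ube2c and Elovl1 overlaps Cdc20 on the opposite strand, as another listed gene does for 9 of the 44 members, and whether the libraries kept the strand is not given in the sources used here.

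Securin (Pttg1), the inhibitor that holds separase inactive until anaphase, kept nearly the same level throughout. It read 31.8, 27.2 and 23.7 FPKM in controls at D0, 24.3, 24.8 and 20.6 at D1 and 24.2, 25.4 and 23.6 at D2. In B-CKO it read 26.8, 24.1 and 23.9, then 22.5, 24.8 and 23.0, then 26.1, 23.2 and 24.8. The times overlapped in either genotype. The difference D1 minus D0 in controls was -0.23 ± 0.11 (SE) on the log2 scale with an adjusted p in limma of 0.0871. Over all alternatives that adjusted p ran from 0.00482 to 0.299, and it passed without the control D0 library numbered 3 (-0.33, adjusted p 0.0157). The difference D2 minus D0 in controls was -0.16 ± 0.10 with an adjusted p in limma of 0.191, and it too passed without that library (-0.26, adjusted p 0.0245).

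The centromere and kinetochore genes rose at both steps except Cenpa, which encodes the histone H3 variant that marks centromeres. The other 6 of 7 were called higher at D1 in each genotype, and all 7 were called higher at D2 than at D1. Spc24, a subunit of the NDC80 complex that grips microtubules, read 5.04 to 7.48 FPKM at D0, 28.4 to 33.9 at D1 and 49.4 to 53.6 at D2. Nuf2, of the same complex, read 1.73 to 3.13, 13.9 to 18.3 and 33.0 to 36.6 FPKM. Ndc80 started higher, at 4.66 to 5.57 FPKM, and multiplied by 2.56 from D0 to D1 in controls. The kinetochore motor Cenpe multiplied by 6.41, Spc25 by 8.73 and Cenpf by 11.0 over that step.

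Cenpa stood apart through its level at D0. It read 22.6, 45.9 and 85.6 FPKM in the control and 25.2, 41.1 and 64.3 in the B-CKO libraries numbered 1, 2 and 3, so that in both genotypes library 1 was lowest and library 3 highest. At D1 the 6 libraries were within 18.5 to 22.1 FPKM, below every D0 library, and at D2 within 99.0 to 113.5 FPKM. D1 minus D0 was -1.06 ± 0.42 (SE) in controls and -0.98 ± 0.42 in B-CKO on the log2 scale, with adjusted p in limma of 0.0509 and 0.0678. Over all alternatives the adjusted p ran from 0.00348 to 0.186 in controls and from 0.0195 to 0.232 in B-CKO. The difference rested on single D0 libraries in either direction. Without number 1 of the same genotype it was -1.54 in controls and -1.32 in B-CKO, with adjusted p in limma of 0.00348 and 0.0238. Without number 3 it was -0.60 in controls and -0.66 in B-CKO, with adjusted p in limma of 0.186 and 0.232. The test also passed in controls without B-CKO library 1 or 3 at D0, and in B-CKO without control library 1 or 3 at D0, since the genotypes share an estimate of the spread. D2 minus D1 was 2.25 ± 0.05 in controls and 2.40 ± 0.05 in B-CKO, with adjusted p in limma of 1.86e-09 and 7.53e-10. D2 minus D0 was 1.19 ± 0.42 in controls (adjusted p 0.0303 in limma) and 1.42 ± 0.42 in B-CKO (adjusted p 0.0129). The former call was lost without library 1 or 2 at D0 or any of the 3 control libraries at D2 (adjusted p 0.0614 to 0.102, with a difference of 0.71 without library 1) and after rescaling to TPM (0.99, adjusted p 0.0647), and the latter without B-CKO library 1 at D0 (1.08, adjusted p 0.0511).

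Other genes moved with the library number at D0. Irf4, a factor induced on activation of B cells, read 117.9, 262.9 and 262.4 FPKM in the control and 119.4, 254.2 and 265.8 in the B-CKO libraries 1, 2 and 3 at D0. The perforin gene Prf1, a cytotoxic effector, read 4.57, 6.85 and 11.8 and then 3.05, 7.50 and 13.6 FPKM in the same order. The erythroid markers, led by the globin genes Hba-a1 and Hbb-bs, summed to between 6.97 and 46.7 FPKM at D0 with library 3 highest in both genotypes. Their part in the level of Cenpa was not tested.

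**Figure D2:**
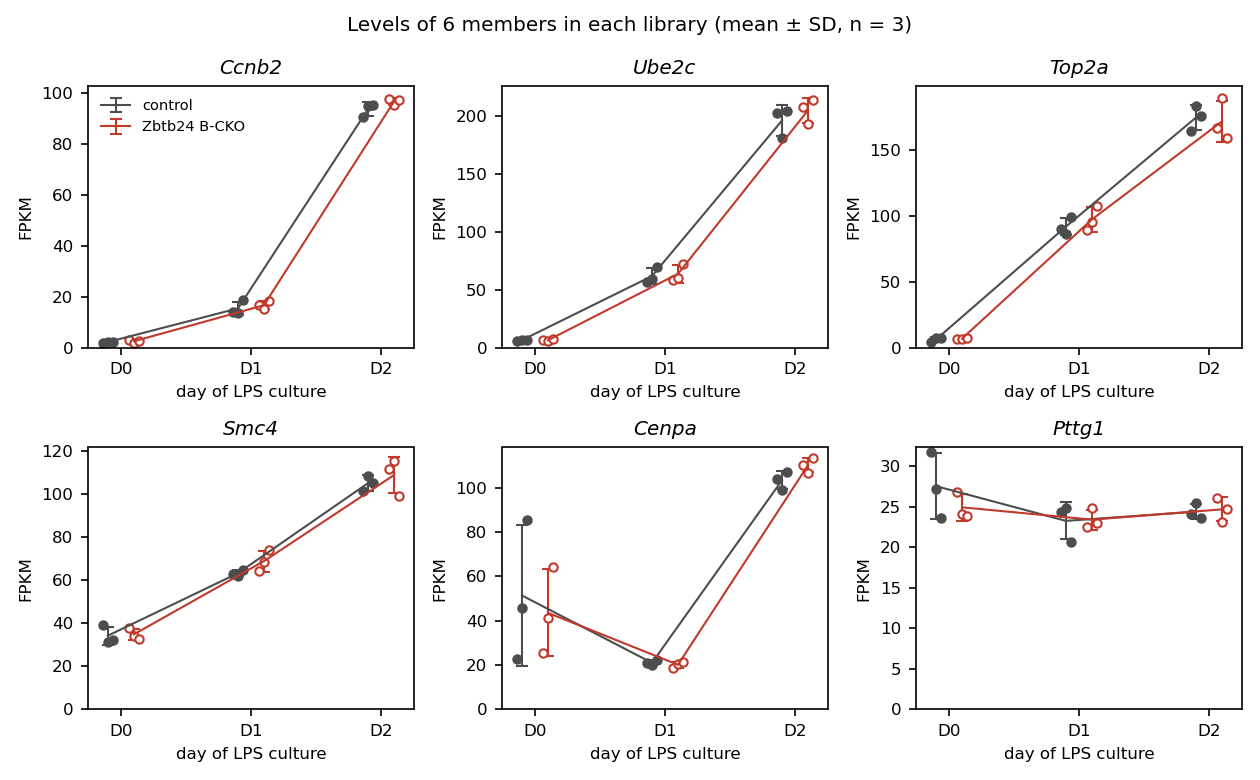
FPKM of 6 members against the day of LPS culture, with each library as a point and the mean ± SD of the 3 libraries of a genotype joined by a line. Ccnb2 and Ube2c gain most of their FPKM in the second day, Top2a rises in both and Smc4 starts high. Cenpa is spread from 22.6 to 85.6 FPKM at D0 and lowest at D1, and Pttg1 stays between 20.6 and 31.8 FPKM.

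All 7 genes of spindle motors and spindle assembly rose at both steps. Tpx2, which activates Aurora A on the spindle, read 1.35 to 2.31 FPKM at D0, 19.6 to 25.4 at D1 and 55.6 to 63.2 at D2. Kif11, the motor that pushes the spindle poles apart, read 1.34 to 2.52, 21.4 to 26.7 and 50.9 to 60.9 FPKM. Nusap1, a microtubule bundling protein, read 1.5 to 2.32, 15.2 to 20.2 and 53.0 to 59.5 FPKM. Kif2c, which depolymerises microtubules at faulty attachments, multiplied by 20.5 from D0 to D1 in controls, the largest value of this group. Hmmr multiplied by 2.77, the smallest, from 3.98 to 4.44 FPKM at D0. The chromokinesin Kif4 multiplied by 13.9 and Dlgap5, a kinetochore fibre protein, by 5.89.

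The 7 genes of chromosome structure also rose at both steps, from very different starting levels. Top2a read 4.04 to 7.39 FPKM at D0, 86.5 to 107.8 at D1 and 159.5 to 189.7 at D2. Smc4, an ATPase subunit of condensin, was at 31.2 to 38.9 FPKM at D0 and multiplied by only 1.85 in the first day, to 62.0 to 73.8 FPKM, and by 1.66 in the second, to 99.2 to 115.3 FPKM. The condensin subunit Ncapd2 read 10.6 to 12.4, 41.0 to 51.1 and 104.3 to 118.4 FPKM. The condensin ATPase Smc2, the partner of Smc4, multiplied by 5.71 and then by 1.39 in controls, and the subunits Ncapg and Ncaph by 18.1 and 8.50 in the first day. Mki67, the Ki-67 protein that coats mitotic chromosomes and is widely used to mark cycling cells, multiplied by 8.68 in the first day and 2.43 in the second.

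The 5 genes of the central spindle and cytokinesis rose at both steps in both genotypes. Kif20a, a motor of the central spindle, read 1.5 to 1.98 FPKM at D0, 18.6 to 23.6 at D1 and 46.5 to 53.5 at D2. Prc1, which bundles the central spindle, read 2.31 to 3.34, 17.6 to 21.7 and 38.9 to 47.2 FPKM. Kif23, a component of centralspindlin, read 2.49 to 3.06, 13.7 to 16.5 and 36.8 to 42.0 FPKM. Anln, the anillin of the contractile ring, read 0.20 to 0.48 FPKM at D0 and was the lowest of the 44 at D2, at 6.01 to 7.53 FPKM. The exchange factor gene Ect2 multiplied by 8.17 from D0 to D1 in controls.

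The members differed in how much of the D2 level they had at D1. Leaving out Cenpa and Pttg1, the D1 mean in controls was 16.4% to 71.9% of the D2 mean (median 41.4%), and in B-CKO 17.2% to 81.2% (median 46.3%). The lowest shares in controls, after Ccnb2 with 16.4%, were those of Nusap1 (31.3%), Ube2c (31.5%), Cdc20 (31.9%) and Plk1 (32.5%). The highest were those of Smc2 (71.9%), Mad2l1 (62.7%), Smc4 (60.2%), Spc24 (56.3%), Spc25 (55.4%) and Ncaph (54.3%). In B-CKO the shares of Ccnb2, Nusap1, Ube2c, Cdc20 and Plk1 were 17.2%, 30.5%, 31.1%, 33.3% and 31.4%, again below all others apart from Cenpa. Smc2, Mad2l1, Smc4, Spc24 and Spc25 there had 81.2%, 65.0%, 63.2%, 63.2% and 60.1%. The order among close neighbours is not resolved, as the 3 control libraries of Plk1 at D1 alone ran from 31.7 to 40.0 FPKM, while Ccnb2 stood well below Nusap1 in either genotype. At D0 the same members stood at 1.71% to 32.5% of their D2 mean in controls, and Smc4 was the highest.

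**Figure D3:**
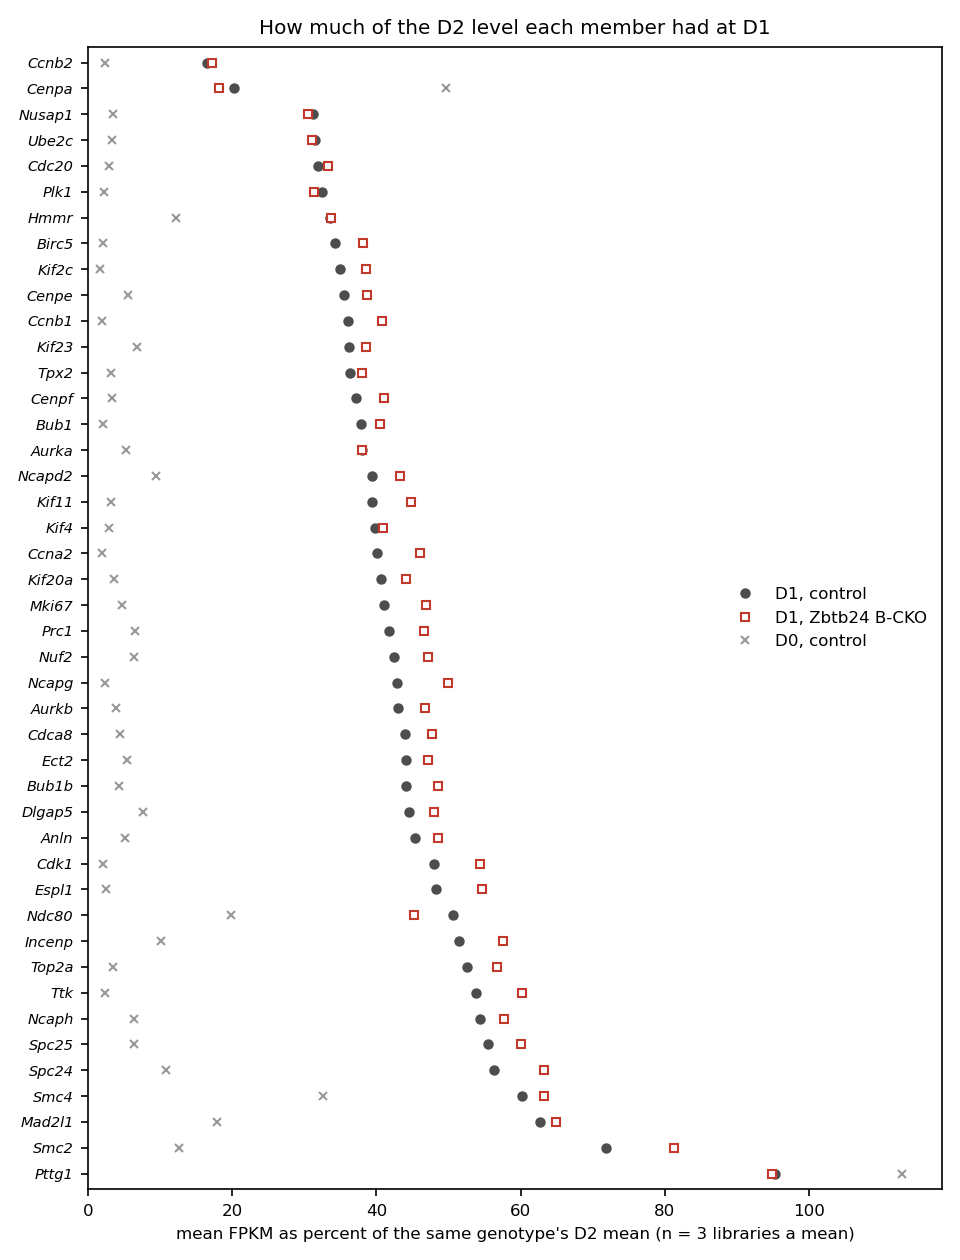
Mean FPKM at D1 as a percent of the mean at D2 in the same genotype for each member (filled circles control, open squares B-CKO), ordered by the control value, with the D0 mean of controls as crosses. Ccnb2 is lowest at 16.4%, the condensin genes Smc2 and Smc4 are near the bottom of the plot with high shares, and Pttg1 stands at 95.3%.

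Further mitotic genes were counted in 5 lists outside the 44. From D0 to D1 in controls, 35 of 36 inner centromere and kinetochore genes, 16 of 17 entry regulators, 22 of 26 spindle and cytokinesis genes, 15 of 17 genes of the anaphase-promoting complex and 10 of 16 cohesin and condensin II genes were called higher, against 26.8% of all genes. Their median differences were 1.56, 1.94, 1.59, 0.77 and 0.29 on the log2 scale, beside 2.63 for the 44. Those called lower, named here after their values were seen, were the phosphatase gene Cdc25b, the spindle pole gene Numa1 and the cohesin genes Esco1, Mau2, Nipbl and Stag2. Cdc25b, which activates CDK1, read 51.1, 51.6 and 44.9 FPKM in controls at D0, 9.18, 8.47 and 10.2 at D1 and 43.3, 43.7 and 52.6 at D2. Like Cenpa it was lowest at D1, and its D1 minus D0 difference was -2.29 ± 0.09 (SE) with an adjusted p in limma of 1.03e-08. Nipbl and Mau2, which load cohesin, changed by -0.76 ± 0.09 and -1.19 ± 0.10 over that step. The lists were also counted from D1 to D2 in controls, in the same order. Called higher were 24 of 36, 14 of 17, 23 of 26, 7 of 17 and 6 of 16 genes, against 20.0% of all genes. The medians were 0.47, 0.72, 0.90, 0.04 and -0.05, so the last 2 lists centred near 0 over this step.

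No member passed the test between genotypes at any time. At D0 the test called 0 of 15641 genes (0%), with 313 genes at an unadjusted p under 0.05, and again 0 with the library number as a block, where 891 genes were. Of the 44 members, 33 had a positive difference, B-CKO minus control, with a median of 0.08 on the log2 scale, while 48.2% of all genes were positive. That median was 0.02 without control library 1, 0.03 without B-CKO library 1 and 0.12 without control library 2. Libraries of the 2 genotypes did not overlap for Aurkb, Kif2c, Plk1 and Ttk, all higher in B-CKO, and 1.92% of all genes were so placed above and 1.94% below. The member differences with SE here come from the fit without the block, where Ttk was the 1 member with an unadjusted p under 0.05. With the block, 2 members had such a p. Ttk read 0.79, 0.86 and 0.42 FPKM in B-CKO against 0.32, 0.37 and 0.36 in control. Its difference was 0.31 ± 0.11 (SE) with an adjusted p of 1 in limma. How many fragments stand behind values this low is unknown. The next smallest p were those of Kif2c (0.10 ± 0.05), Plk1 (0.24 ± 0.13), Kif4 (0.21 ± 0.12) and Cdc20 (0.22 ± 0.14), each with an adjusted p of 1 in limma. The interval was widest for Cenpa, from -1.42 to 1.14, and with the block it was -0.45 to 0.17.

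At D1 the members leaned to higher values in B-CKO by a small amount that no member passed on its own. The test called 15 of 15104 genes (0.0993%) and 0 of the 44, with 2463 genes at an unadjusted p under 0.05, of which 5 were members. Restricted to genes whose mean reached 1 FPKM, the same fit called 388 of 9711 genes and again 0 of the 44. The difference was positive for 41 of the 44 with a median of 0.11, a ratio of 1.08, and ran from -0.06 to 0.24, while 46.9% of all genes were positive with a median of -0.005. The 44 share libraries, so their signs are not independent. With single libraries left out the median ran from 0.06 to 0.16 and the positive members from 36 to 43. It was lowest without B-CKO library 3 (0.06, 36 positive) and control library 2 (0.06, 37 positive). The FPKM sum over the 44 was 1099, 1085 and 1244 in the control and 1138, 1213 and 1324 in the B-CKO libraries 1, 2 and 3, and the groups overlapped.

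The 5 members with the smallest p at D1 belong to the kinetochore, condensin and the spindle. Spc25 read 17.5, 18.6 and 18.9 FPKM in B-CKO against 16.5, 15.9 and 16.3 in control, a difference of 0.16 ± 0.04 (SE) with an adjusted p in limma of 0.132. Ncapg, a condensin subunit, read 16.8, 17.9 and 20.0 against 14.8, 15.1 and 15.9 FPKM, a difference of 0.24 ± 0.06 with an adjusted p of 0.149. Lcorl overlaps Ncapg on the opposite strand. Spc24 read 32.1, 31.4 and 33.9 against 28.4, 30.4 and 30.8 FPKM, a difference of 0.12 ± 0.04 with an adjusted p of 0.253. Smc2 (0.14 ± 0.05) and Dlgap5 (0.13 ± 0.04) had adjusted p of 0.213 and 0.233. The libraries of Spc25, Ncapg, Spc24 and Dlgap5 did not overlap between genotypes, and those of Smc2 did. These 4 were above and no member was below, beside 8.43% of all genes above and 11.7% below. The adjusted p of Ncapg in limma ran from 0.0224 to 1 over all alternatives.

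Markers moved with genotype at D1. The 7 B cell markers summed to 2382 to 2561 FPKM in the control and 2076 to 2152 in the B-CKO libraries, so the groups did not overlap. The 8 T cell markers summed to 12.2 to 14.9 against 9.45 to 10.8 FPKM at D1. The gap came mostly from Lck, with means of 12.02 and 8.90 FPKM. Cd28 was also lower without ZBTB24, with means of 0.083 and 0.023 FPKM in the same order, and Thy1 had equal means of 0.207. The means of Cd3d, Cd3e, Cd3g, Cd4 and Cd8a were higher in B-CKO. None of Cd3d, Cd3e, Cd4 and Cd8a was above 0.42 FPKM in a library at D1. At D2, when the members did not lean, the T cell sum was again 12.4 to 12.95 against 9.04 to 10.2 FPKM. The part of these differences in the small lean of the members was not tested.

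At D2 the differences of the members centred on 0. The test called 7 of 15210 genes (0.0460%) and 0 of the 44, with 1172 genes at an unadjusted p under 0.05. The difference was positive for 23 of 44 with a median of 0.003 and a range of -0.10 to 0.12, while 45.2% of all genes were positive. With single libraries left out the median ran from -0.02 to 0.04. Ndc80 had the smallest p, with 27.8, 29.1 and 26.6 FPKM in B-CKO against 26.0, 25.3 and 25.2 in control, a difference of 0.12 ± 0.04 (SE) with an adjusted p of 0.581 in limma. Cenpa (0.09 ± 0.04), Ccna2 (-0.08 ± 0.04), Nusap1 (0.07 ± 0.05) and Mad2l1 (0.07 ± 0.05) followed with adjusted p of 0.689 to 0.849. Ndc80 and Cdca8 lay above and Ccna2 and Spc24 below without overlap, beside 4.89% of all genes above and 6.24% below.

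The intervals show what size of difference these libraries allow. At D1 and at D2, when no member had a mean under 1 FPKM, the 95% interval of each of the 44 differences lay within 0.585 of 0 on the log2 scale, a fold of 1.5 in FPKM + 1, and the same held for all 44 with a pseudocount of 0.1. At D0 it held for 38 of the 44, but 10 members had a mean under 1 FPKM there, and with a pseudocount of 0.1 it held for 16. With the block for library number, which pairs the D0 libraries, it held for 40 of the 44, and for 21 with the pseudocount of 0.1. The D0 libraries therefore bound a change of 1.5-fold in FPKM less often than the later ones. The median width of the interval was 0.62 at D0, 0.38 at D1 and 0.27 at D2 on the log2 scale. The 5 lists of further mitotic genes had no call between genotypes at any of the 3 times. At D1, 33 of 36 inner centromere and kinetochore genes, 14 of 17 entry regulators, 23 of 26 spindle and cytokinesis genes, 13 of 17 genes of the anaphase-promoting complex and 12 of 16 cohesin and condensin II genes had a positive difference, with medians of 0.08, 0.09, 0.09, 0.02 and 0.05. Of these, Dsn1 of the outer kinetochore (0.22 ± 0.05) and the checkpoint ATPase gene Trip13 (0.17 ± 0.04) had the smallest p of the first list and adjusted p of 0.126 and 0.139 in limma.

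**Figure D4:**
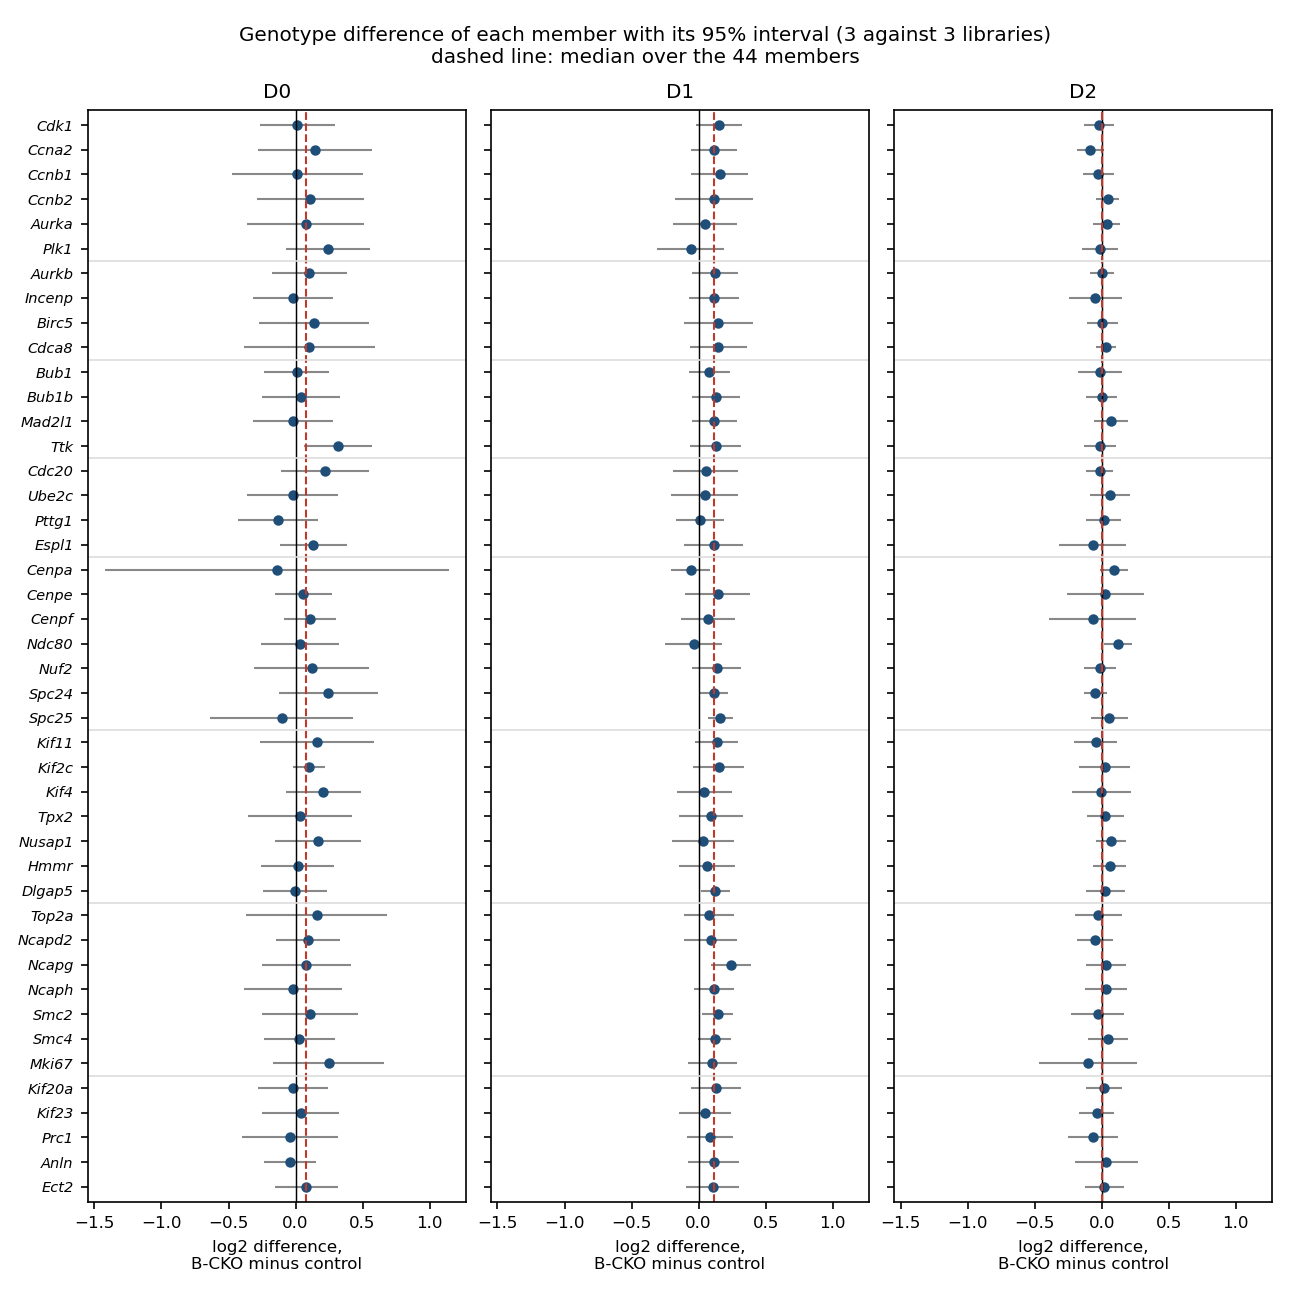
Difference of each member between genotypes (B-CKO minus control, log2 scale) at D0, D1 and D2 with its 95% interval from 3 against 3 libraries and the median over the 44 as a dashed line. Most points are to the right of 0 at D1 (median 0.11) and centre on 0 at D2, and the intervals narrow from D0 to D2.

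The change over time was also compared between genotypes. No gene was called for the change from D0 to D1, from D1 to D2 or from D0 to D2 (0% of 16182, 15844 and 16257 genes), with 467, 1158 and 422 genes at an unadjusted p under 0.05. From D1 to D2 the difference in change, B-CKO minus control, was positive for 6 of the 44, with a median of -0.11, and none passed. Of all genes, 49.3% were positive. That median was -0.18 without the control D1 library numbered 3, -0.06 without the B-CKO D1 library numbered 3 and -0.07 without the B-CKO D2 library numbered 3. Spc24 had the smallest p, with a difference in change of -0.16 ± 0.06 (SE) with an adjusted p of 0.610 in limma, and its B-CKO libraries lay above the controls at D1 and below them at D2. Ccna2 (-0.20 ± 0.09), Ncapg (-0.21 ± 0.10), Cenpa (0.15 ± 0.08) and Cdk1 (-0.17 ± 0.09) followed with adjusted p of 0.680 to 0.726. From D0 to D1 the median was 0.04 and ran from -0.02 to 0.10 with single libraries left out, and the members with the smallest p were Plk1 (-0.30 ± 0.16), Dlgap5 (0.13 ± 0.10), Anln (0.15 ± 0.13), Ttk (-0.19 ± 0.16) and Kif20a (0.15 ± 0.14). From D0 to D2 it was -0.06, with a range of -0.11 to -0.005 with single libraries left out, and the members with the smallest p were Ttk (-0.33 ± 0.15), Spc24 (-0.29 ± 0.14), Plk1 (-0.25 ± 0.12), Cdc20 (-0.24 ± 0.12) and Ncapd2 (-0.14 ± 0.09). Every adjusted p of these 2 changes was 1 in limma.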

How the data were processed

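Splenic B cell RNA was sequenced in 18 libraries, with 1 mouse per replicate per the methods, and conditions and times were taken from the sample labels. The authors mapped reads to mm10 with bowtie2 and deposited FPKM with 2 decimals for 16545 genes, quantified with Cufflinks and RSEM. The submitters' processing notes also name BWA and DESeq2. Versions are not given in the sources used here. Methods and labels name different sequencers. FPKM are scaled to length and library size, so a rise of some genes lowers the share of the rest.

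From these, log2(FPKM + 1) was tested by linear models with trended empirical Bayes variances (limma 3.58.1, R 4.3.3), leaving out genes at 0 in all compared libraries, with Benjamini-Hochberg adjustment over all genes and a threshold of 0.05. Genotypes were compared over the 6 libraries of a time, and times and differences in change over the 12 libraries of 2 times. Gene IDs were matched to RefSeq for 16512 genes. Depth in fragments is unknown. Relative depth, estimated from values of single fragments in 9 to 19 genes per library, was 0.907 to 0.937 at D0 and 0.970 to 1.08 later.

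Deviations from group means of same-numbered libraries of the 2 genotypes correlated at 0.854, 0.468 and 0.789 at D0, so the numbers pair the libraries there. At D1, at D2 and across times a shared number was not taken to pair libraries.

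On simulated data with 200 changed genes, the genotype fit at D1 recovered 84.4% of 64 genes changed by 1.5-fold among 14667, and 18 of 203 calls were false. At D0 it recovered 20.9% of 67, with 11 of 123 false. For D1 minus D0, 54 of 220 calls were false, and for the 2 differences in change simulated, 45 of 186 and 30 of 208.

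The members, lists and tests were chosen with earlier results of these data known. Values are given for the 3 members of each group with the highest mean FPKM, the 5 with the smallest p in each genotype comparison, members that did not rise, and at most 2 genes of another list. Marker genes Trac and Ahsp had no row. The Cre driver and some single marker genes are not reported here, and the summed marker levels include all listed genes with a row. Alternatives were a pseudocount of 0.1, a filter for means of 1 FPKM or more, TPM scaling, median ratio scaling, group weights, 1 fit of all 18 libraries, a replicate block and leaving out each library. The block with the filter, the block with a pseudocount of 0.1 at D0, and leaving out the D0 libraries numbered 3, were chosen after seeing the data. Figures were drawn with matplotlib 3.10.9 under Python 3.11.15, numpy 2.4.6 and pandas 2.3.3.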

Additional observations from a re-analysis of the deposited data

Results flagged for a closer look

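Spc24 had all 3 B-CKO libraries above the 3 controls at D1 and all 3 below them at D2. The difference between these effects was tested as a difference in change and was -0.16 on the log2 scale, with an adjusted p of 0.610 in limma, so it did not pass. At D2 the gap between the highest B-CKO library (52.4 FPKM) and the lowest control library (52.5 FPKM) was small. Of all genes, 8.43% were so placed above at D1 and 6.24% below at D2. The share of all genes with both was not counted.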

How the results depend on the processing

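The counts of members called higher over time were within 1.5 times the reported count under every alternative run, and no member was called between genotypes except at D1 under the replicate block with a mean of at least 1 FPKM, where 2 were, Ncapg (0.24, adjusted p 0.0224 in limma) and Cdk1 (0.15, adjusted p 0.0471), beside 704 of 9711 genes (7.25%). The replicate block alone called 0 members between genotypes at each time. At D1 it called 5 genes, the filter alone 388 and a pseudocount of 0.1 46, against 15 reported. At D0 the filter called 2, the block with the filter 22 and all 18 libraries 23, against 0, and at D2 these called 29, 116 and 11, against 7, and the block alone 3. Same-numbered libraries of the 2 genotypes correlated at 0.104, 0.20 and 0.0910 at D1 and at -0.0372, 0.216 and 0.230 at D2. Same-numbered libraries of 2 times within a genotype correlated at -0.0872 to 0.187. Among these, B-CKO at D1 with D2 gave 0.126, 0.183 and 0.117 for numbers 1, 2 and 3. Whether libraries of 2 times share a mouse is not known, so the block over time was run as an alternative only. With the block over time, the adjusted p of D1 minus D0 in controls was 0.0478 for Pttg1 and 0.0408 for Cenpa. For D1 minus D0, members called lower, Cenpa or Pttg1, numbered 2 in controls after rescaling to TPM, in 1 fit of all 18 libraries and under the replicate block with or without the filter, and 1 with a pseudocount of 0.1, the 1 FPKM filter, group weights or the D0 libraries numbered 3 left out. In B-CKO they numbered 2 in TPM and 1 with the filter, group weights, all 18 libraries, or block and filter. For D2 minus D0 in controls 1 was called lower in TPM and with the D0 libraries numbered 3 left out. Leaving out single libraries gave 0 to 1 for each of these 3 counts.

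The median over members depended on scale. With a pseudocount of 0.1 it was 3.11 for D1 minus D0 and 4.51 for D2 minus D0 in controls and 3.14 and 4.23 in B-CKO, and in TPM it was 2.75 and 4.04 in controls and 2.65 for D1 minus D0 in B-CKO. With single libraries left out it ran from 1.18 to 1.28 for D2 minus D1 and from 3.72 to 3.92 for D2 minus D0 in controls, from 2.51 to 2.62 for D1 minus D0 and from 3.59 to 3.77 for D2 minus D0 in B-CKO, and from -0.18 to -0.057 for the difference in change from D1 to D2. Pttg1 changed sign for D2 minus D0 in B-CKO under median ratio scaling (0.032) and with single libraries left out (-0.054 to 0.038), and for D2 minus D1 in controls (-0.011 to 0.12). The cause was not tested. Of 5456 values of members over time under alternatives, 5417 kept their direction and side of the threshold, and of 524 for the 5 members with the smallest p in each of the 6 comparisons between genotypes 523 did (Ncapg at D1 was the exception). Relative depth was estimated at 0.907 to 0.937 at D0 and 0.970 to 1.08 later, and its part in the precision of members under 1 FPKM was not tested.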
